A study of Mus musculus with 9 samples.

Results

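The Sprr2 genes encode small proline-rich proteins of squamous epithelium, and they are described here in labial mucosa of 3 mouse strains. The 10 members, Sprr2a1, Sprr2a2, Sprr2a3, Sprr2b, Sprr2d, Sprr2e, Sprr2f, Sprr2g, Sprr2h and Sprr2i, were selected by symbol out of the 55342 gene names measured. They were chosen with their levels in these libraries in view, above all the low Sprr2a levels of strain Tac111, so their differences between strains are a description: no p-value is given for a member, and how many members the fit over all genes called is stated without reading anything from it. Another 3 genes with an Sprr2 symbol, Sprr2k, Sprr2j-ps and Sprr2c-ps, are not members and serve for comparison.

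Polyadenylated RNA was sequenced from biopsies of the lip lining of mice labelled Tac111, Tac146 and B6, with 3 libraries per strain. The mice of all strains had been infected before the biopsy. The labels say that strains carried different mutations without naming an allele, and the sources used here do not give the agent, its timing or the animals' age. They list T cells as the cell type of the Tac111 and Tac146 libraries and ILC1 cells, a type of innate lymphoid cell, for B6, so labelled cell type and strain cannot be told apart in either comparison with B6. Total expected counts (estimated read counts per gene, which need not be whole) ran from 27192359 to 46456500 per library. Markers of epithelium and muscle outweighed those of the named cells: Krt4, Krt13, Krt76 and Krt78, keratins of the upper oral epithelium, took 5.63 to 9.26% of the counts, whereas 8 T cell genes took at most 0.00163%. In Tac111, Cd3d, Cd3e, Cd3g and Cd8a of this list had 0 counts, while Trac, Trbc1, Trbc2 and Cd4 had some. All 8 together took 0.000644 to 0.000832% in Tac111, overlapping the 0.000701 to 0.000968% of Tac146. Nothing in the labels says that libraries of a strain came from separate animals, so the spread between them may be technical.

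In stratified epithelium, keratinocytes that approach the surface replace their plasma membrane with the cornified envelope, a sheet of proteins cross-linked by transglutaminases. Small proline-rich proteins are among its cross-linked precursors, and Sprr2 proteins consist largely of short repeats rich in proline and cysteine between glutamine-rich ends. Mouse Sprr2 genes are known to be induced in injured and inflamed epithelia, and the Sprr2a genes to respond to the type 2 cytokines interleukin 4 and interleukin 13 in mouse airway and gut. In mouse gut, Sprr2a protein is also known to kill Gram-positive bacteria.

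All members lie on the plus strand of chromosome 3, within 193 kb from 92215799 to 92409271 (GRCm38, GENCODE M21). Their coding sequences run from 231 to 327 bases. Those of Sprr2a2, the most abundant member, and Sprr2d, from the group of 7 others, are shown to let their repeats be compared. Capitals mark each match to the repeat motif of cysteine, proline, glutamate, proline and cysteine codons, of which Sprr2a2 has 1 and Sprr2d has 5, counting overlapping matches.
Sprr2a2 coding sequence: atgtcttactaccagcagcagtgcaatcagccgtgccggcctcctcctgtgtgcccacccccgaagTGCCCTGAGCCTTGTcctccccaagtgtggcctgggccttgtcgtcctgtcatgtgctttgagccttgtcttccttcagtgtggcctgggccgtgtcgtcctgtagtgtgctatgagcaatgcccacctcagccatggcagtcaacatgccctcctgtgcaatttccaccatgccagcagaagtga
Sprr2d coding sequence: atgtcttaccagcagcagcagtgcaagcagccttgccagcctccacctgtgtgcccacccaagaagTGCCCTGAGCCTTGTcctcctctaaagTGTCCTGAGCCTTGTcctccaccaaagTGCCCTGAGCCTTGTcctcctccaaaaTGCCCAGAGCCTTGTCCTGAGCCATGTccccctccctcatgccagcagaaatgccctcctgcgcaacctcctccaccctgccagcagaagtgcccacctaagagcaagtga

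The same motif matched 1 time in Sprr2a1 and in Sprr2a3, and 3 to 5 times in the 7 other members. Sprr2a1 and Sprr2a2 had the same coding sequence, and Sprr2a3 differed from them at 3 of 252 bases (98.8% identity). Sprr2a2 and Sprr2d shared 69.6% of their aligned columns. Among the others, Sprr2e and Sprr2i were closest, at 97.0%. Sprr2g is annotated as a polymorphic pseudogene in GENCODE, the other members as protein-coding.

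Promoter windows, 250 bases before to 50 after the start site, were taken from RefSeq (GRCm38.p6) for the 9 members that had one, all but Sprr2g. Those of Sprr2a2, Sprr2d, Sprr2i and the non-member Sprr2k are shown, to set a Sprr2a copy beside other members and a neighbour. The letters marked in Sprr2d and Sprr2i recur in this neighbour, Sprr2k. Any link between such letters and the levels by library was not tested. Capitals in Sprr2a2 mark the longest stretch it shares with the Sprr2b window, 18 bases. In Sprr2d, Sprr2i and Sprr2k they mark TGANTCA (AP-1), ATTTGCAT (the octamer bound by POU factors) and TATAAA, the core promoter box.
Sprr2a2 promoter, chr3:92250397-92250696, plus strand: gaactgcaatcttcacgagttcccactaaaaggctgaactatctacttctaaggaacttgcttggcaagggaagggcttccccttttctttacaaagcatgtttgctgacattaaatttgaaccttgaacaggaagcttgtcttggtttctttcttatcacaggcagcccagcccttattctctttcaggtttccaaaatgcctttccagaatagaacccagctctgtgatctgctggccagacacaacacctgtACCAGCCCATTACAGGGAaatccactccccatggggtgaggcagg
Sprr2d promoter, chr3:92338890-92339189, plus strand: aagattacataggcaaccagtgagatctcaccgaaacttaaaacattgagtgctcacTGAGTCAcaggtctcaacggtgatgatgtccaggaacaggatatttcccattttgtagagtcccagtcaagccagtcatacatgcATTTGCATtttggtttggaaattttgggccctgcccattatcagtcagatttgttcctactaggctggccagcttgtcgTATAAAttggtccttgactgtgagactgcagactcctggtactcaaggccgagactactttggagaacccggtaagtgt
Sprr2i promoter, chr3:92407741-92408040, plus strand: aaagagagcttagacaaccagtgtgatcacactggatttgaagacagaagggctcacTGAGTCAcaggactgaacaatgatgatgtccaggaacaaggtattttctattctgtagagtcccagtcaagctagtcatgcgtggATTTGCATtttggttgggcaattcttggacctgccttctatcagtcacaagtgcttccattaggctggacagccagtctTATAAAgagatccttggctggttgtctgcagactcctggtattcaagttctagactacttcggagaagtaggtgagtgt
Sprr2k promoter, chr3:92432332-92432631, plus strand: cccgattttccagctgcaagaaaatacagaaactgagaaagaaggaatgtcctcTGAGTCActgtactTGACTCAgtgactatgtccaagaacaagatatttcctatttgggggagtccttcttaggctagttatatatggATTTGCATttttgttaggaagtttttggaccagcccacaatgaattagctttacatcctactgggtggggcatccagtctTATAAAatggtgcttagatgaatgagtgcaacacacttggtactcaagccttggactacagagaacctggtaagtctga

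Motifs were searched on both strands in these windows and in 32851 RefSeq promoters of the same length. The 300 bases of the Sprr2a1 and Sprr2a2 windows were the same, and 272 of them recurred in Sprr2a3. Sprr2b, Sprr2d, Sprr2e, Sprr2f, Sprr2h and Sprr2i held TGANTCA between -198 and -193 (7.81% of all promoters), ATTTGCAT between -112 and -108 (1.74%) and TATAAA at -29 (13.6%). None of these 3 motifs matched in the windows of the Sprr2a copies. They stood at -196, -109 and -29 in Sprr2k, with another TGANTCA at -182. The annotated Sprr2a2 start lies farther upstream than that of Sprr2b. The 18 bases in capitals begin at 6 in Sprr2a2 and at -80 in Sprr2b, so their windows are not aligned with each other. Counted from these bases, the place of TATAAA in Sprr2b falls past the end of the Sprr2a windows. Starts of the remaining members were not compared in this way. The lack of a TATAAA match there therefore cannot be read as a difference between promoters.

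Of the other motifs searched, TTCNNNGAA, 1 form of STAT site, matched in Sprr2a3 and Sprr2i (8.30% of all promoters). Forms with other spacing were not searched, so this does not show which windows lack a STAT site. GGAAAT matched in 7 windows (17.7%), CTGGGA in 3 (31.8%), CCACCC in 1 (31.5%) and GGGCGG in 1 (35.7%). These matches describe letters in a window and were not tested as binding sites.

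Copies this alike can share reads, and the authors' estimation had to divide them. Of the 100-base windows in the annotated transcripts, 92.5% of those of Sprr2a1, 92.8% of those of Sprr2a2 and 36.2% of those of Sprr2a3 recurred in another member. For the 7 other members the share was at most 1.16%. In addition, the annotated Sprr2a2 gene overlaps Sprr2a1. Values of the 3 Sprr2a copies were not whole in all 9 libraries, as happens where reads are divided, whereas Sprr2f, Sprr2g and Sprr2h had whole counts throughout. The split among the Sprr2a copies is therefore uncertain, and their sum is the safer value.

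Sprr2 transcripts were lowest in Tac111 and highest in Tac146. The 10 members together had 9.39, 12.1 and 9.48 CPM in Tac111, 6509, 6454 and 12319 CPM in Tac146, and 2267, 1374 and 2166 CPM in B6, where CPM scales counts to a common library size. The ranges of the 3 strains did not overlap. Means were 10.3 ± 1.54 CPM in Tac111, 8428 ± 3371 CPM in Tac146 and 1936 ± 489 CPM in B6 (SD, n = 3 each). The family sum was thus 187-fold lower in Tac111 than in B6 (log2 ratio of means -7.55), and the closest pair of libraries still differed 114-fold. In Tac146 it was 4.35-fold higher than in B6 (log2 ratio 2.12), with 2.85-fold between the closest libraries. Between Tac111 and Tac146 it was 816-fold lower in Tac111 (log2 ratio -9.67). Of all counts, the family took 0.000907 to 0.00123% in Tac111, 0.635 to 1.20% in Tac146 and 0.141 to 0.232% in B6. In bulk tissue, fewer cells of a type and less RNA per cell cannot be told apart.

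**Figure D1:**
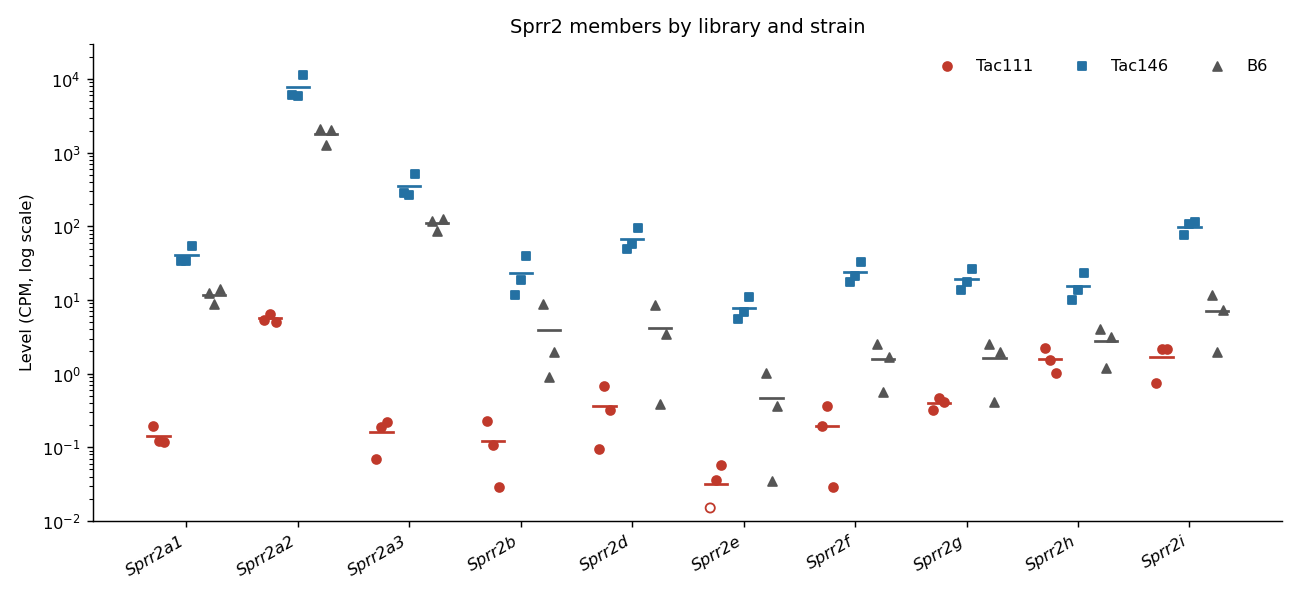
Level of each Sprr2 member in each library (CPM, log scale), with Tac111, Tac146 and B6 from left to right for each gene. Points are libraries, lines are means of 3 libraries, and the open point at the bottom is the Tac111 library with 0 counts of Sprr2e. For all 10 members the Tac111 and Tac146 libraries do not overlap, and Sprr2a2 is highest, up to 11406 CPM in Tac146 replicate 4.

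Relative to Krt4 and Krt13, which mark the oral epithelial layer, the order of the strains was the same. Per 1000 counts of this keratin pair, the family had 0.178, 0.200 and 0.147 counts in Tac111, from 81.6 to 151 in Tac146, and 44.0, 21.1 and 23.6 in B6. Krt4 itself averaged 27698 ± 2565 CPM in Tac111, 34496 ± 5816 CPM in Tac146 and 32465 ± 10194 CPM in B6 (SD, n = 3 each) and was called in none of the 3 comparisons (edgeR adjusted p = 0.596 for Tac111 against B6, 0.946 for Tac146 against B6 and 0.390 for Tac111 against Tac146). Krt13, its partner, was called in no comparison either.

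The 3 Sprr2a copies made up most of the family in Tac146 and B6. Sprr2a2 had 5.35, 6.41 and 5.10 CPM in Tac111, 6009, 5910 and 11406 CPM in Tac146, and 2097, 1274 and 2007 CPM in B6. Every Tac111 library was over 100-fold below every other library. Sprr2a3, the copy farther along the cluster, had 0.0686, 0.189 and 0.222 CPM in Tac111, 280, 269 and 518 CPM in Tac146, and 117, 85.6 and 126 CPM in B6. Sprr2a1, whose coding sequence equals that of Sprr2a2, had 0.195, 0.121 and 0.117 CPM in Tac111, 34.1, 33.6 and 54.7 CPM in Tac146, and 12.5, 8.76 and 14.2 CPM in B6. For both, the 3 strains stood apart in the same order as for Sprr2a2.

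Sprr2a2 took 93.8 to 95.4% of the counts assigned to the 3 copies in Tac111, and 93.1 to 95.2% in Tac146 and B6, a split that moved by under 3 percentage points over all libraries. Its ratio to Sprr2a3 was 23.0 to 77.9 in Tac111, 21.4 or more in Tac146 and 14.9 to 17.9 in B6. The high Tac111 ratios rest on only 2.14 to 7.64 expected counts of Sprr2a3. Summed, the copies had 5.61, 6.72 and 5.44 CPM in Tac111, 6324, 6212 and 11979 CPM in Tac146, and 2228, 1368 and 2146 CPM in B6. When they were summed to 1 gene before the fit, the log2 fold change was -8.34 (SE 0.37) for Tac111 against B6, 2.09 (SE 0.28) for Tac146 against B6 and -10.43 (SE 0.40) for Tac111 against Tac146.

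Among the 7 other members, Sprr2i and Sprr2d were the most abundant in Tac146. Sprr2i had 0.737, 2.17 and 2.18 CPM in Tac111, 77.3, 107 and 114 CPM in Tac146, and 11.7, 1.95 and 7.42 CPM in B6. Sprr2d had 0.0962, 0.686 and 0.320 CPM in Tac111, 49.4, 56.9 and 93.8 CPM in Tac146, and 8.55, 0.383 and 3.41 CPM in B6. In both genes the Tac146 libraries lay above all others, while B6 replicate 2 fell inside the Tac111 range.

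Sprr2b, the member next to the Sprr2a copies, had 0.224, 0.108 and 0.0291 CPM in Tac111, 11.7, 19.0 and 40.0 CPM in Tac146, and 8.92, 0.912 and 2.00 CPM in B6. Sprr2f had 0.192, 0.361 and 0.0291 CPM in Tac111, 17.7, 21.2 and 32.6 CPM in Tac146, and 2.53, 0.557 and 1.69 CPM in B6. These were the only members outside the Sprr2a copies for which all B6 libraries lay above all Tac111 libraries. Sprr2g had 0.321, 0.470 and 0.407 CPM in Tac111, 13.8, 17.5 and 26.4 CPM in Tac146, and 2.55, 0.417 and 1.99 CPM in B6. For Sprr2h the values were 2.21, 1.55 and 1.02 CPM in Tac111, 10.1, 13.8 and 22.9 CPM in Tac146, and 4.06, 1.18 and 3.11 CPM in B6. Sprr2h thus had the smallest difference of any member between Tac111 and each of the other strains.

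Sprr2e had the fewest counts of any member in each strain. Its counts were 0, 1 and 2 in Tac111, with 252, 220 and 492 expected counts in the Tac146 libraries and 42.3, 1 and 11 in the B6 libraries. With 3 counts in all of Tac111, the ratio of Tac146 to Tac111 was 244 (95% exact interval for counting error 83.1 to 1184). For B6 over Tac111 it was 16.7 (5.40 to 83.3), although B6 replicate 2 held a single count.

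Levels of different members can be compared only per length of transcript. Per kilobase, mean Sprr2a2 was 1.96 to 7.78 CPM in Tac111, 2712 to 10769 CPM in Tac146 and 625 to 2483 CPM in B6, where the bounds use its longest and shortest annotated transcript. It was thus above Sprr2a3, which had 0.0555 to 0.234 CPM per kilobase in Tac111, 124 to 522 in Tac146 and 38.0 to 161 in B6. Sprr2i followed in Tac146 and B6 with values inside or below the Sprr2a3 bounds, with 2.75 CPM per kilobase in Tac111, 161 in Tac146 and 11.4 in B6, and Sprr2d, with 0.540 in Tac111, 97.9 in Tac146 and 6.04 in B6. In Tac111, Sprr2h overlapped Sprr2a2 and Sprr2i, at 2.12 to 5.37 CPM per kilobase.

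Tac111 was first set against B6, to ask how the mucosa of the strains differed. All 10 members had a lower mean in Tac111, by 667-fold for Sprr2a3 (log2 fold change -9.38, SE 0.43), 320-fold for Sprr2a2 (-8.32, SE 0.37) and 82.9-fold for Sprr2a1 (-6.37, SE 0.38). Differences among these copies, here and in the comparisons below, depend on the uncertain split of reads, which the SEs leave out. Sprr2a3 and Sprr2a1 had only 15.0 and 13.4 expected counts in all of Tac111. Outside these copies the log2 fold changes were smaller: -5.07 (SE 1.16) for Sprr2b, -3.84 (SE 1.16) for Sprr2e, -3.58 (SE 0.95) for Sprr2d and -3.14 (SE 0.69) for Sprr2f. Sprr2g, Sprr2i and Sprr2h stood at -2.09 (SE 0.58), -2.07 (SE 0.56) and -0.83 (SE 0.47). The values outside the Sprr2a copies rested partly on single libraries. Without B6 replicate 1 they were -3.58 for Sprr2b, -2.53 for Sprr2e, -2.42 for Sprr2d and -1.47 for Sprr2i. Without the highest Tac111 library they moved the other way, to -5.91 for Sprr2b (replicate 1), -4.64 for Sprr2e (replicate 3), and -4.30 for Sprr2d and -3.90 for Sprr2f (replicate 2). No Sprr2a copy moved by over 1.5-fold without any single library. The median over the 10 members was -3.71, against 0.02 over all 16523 genes tested.

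EdgeR's quasi-likelihood test, at an adjusted p threshold of 0.05, called 5 of the 10 members lower in Tac111 than in B6, namely the Sprr2a copies, Sprr2b and Sprr2f. Over all genes tested it called 2.80% lower and 1.02% higher. The same 5 members had library ranges that did not overlap, lower in Tac111, as did 15.9% of all genes. Since the members were chosen with this contrast in view, nothing is read from these counts. All 10 passed the filter on low counts over the 9 libraries, but Sprr2e did so through Tac146 and would not pass on the Tac111 and B6 libraries alone. The count of members called was 9 without B6 replicate 2, and 3 without B6 replicate 1, B6 replicate 3 or any single Tac111 library.

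Tac146 against B6 was the second comparison, in which the strain with most Sprr2 transcripts is set against the intermediate one. Here the Sprr2a copies stood at the other end of the order of members. Sprr2d, Sprr2e, Sprr2f and Sprr2i had the largest log2 fold changes, at 3.96 (SE 0.65), 3.92 (SE 0.56), 3.86 (SE 0.44) and 3.80 (SE 0.49), followed by Sprr2g at 3.50 (SE 0.43). Sprr2b and Sprr2h stood at 2.53 (SE 0.67) and 2.46 (SE 0.42). The Sprr2a copies differed least, at 2.12 (SE 0.28) for Sprr2a2, 1.79 (SE 0.22) for Sprr2a1 and 1.70 (SE 0.25) for Sprr2a3. Without B6 replicate 1 the values were 5.23 for Sprr2e, 5.12 for Sprr2d, 4.40 for Sprr2i and 4.02 for Sprr2b, and without Tac146 replicate 4 Sprr2b stood at 1.90. The median over members was 3.01, against 0.01 over all genes tested.

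EdgeR called 9 members higher in Tac146 than in B6 at the same threshold, all but Sprr2b, against 0.194% of all genes tested called higher and 0.109% called lower. All 10 members had Tac146 libraries above all B6 libraries, as did 6.35% of all genes. These values too were known when the members were chosen, and both comparisons use the same B6 libraries, so the counts are not independent of each other. The count fell to 4 without B6 replicate 3 and to 1 when only the 6 libraries of these strains were fitted.

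**Figure D2:**
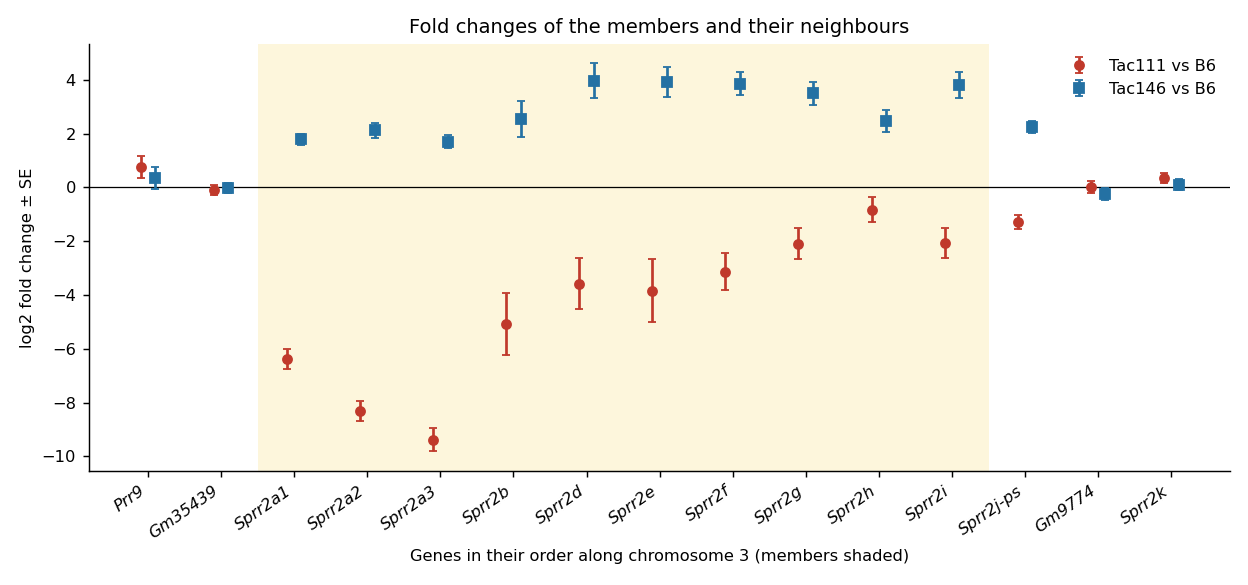
Log2 fold change with its SE for Tac111 against B6 (circles) and Tac146 against B6 (squares), for the members (shaded) and 5 neighbours in their order along chromosome 3, not to distance. The Sprr2a copies have the most negative Tac111 values and the smallest Tac146 values of the members, while Sprr2k, Gm9774, Prr9 and Gm35439 lie between -0.23 and 0.77.

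Set side by side, Tac111 against Tac146 gave log2 fold changes of -11.08 (SE 0.44) for Sprr2a3, -10.44 (SE 0.40) for Sprr2a2 and -8.16 (SE 0.36) for Sprr2a1. Sprr2e, Sprr2b, Sprr2d and Sprr2f lay at -7.76 (SE 0.85), -7.60 (SE 1.06), -7.54 (SE 0.88) and -6.99 (SE 0.59), and Sprr2i, Sprr2g and Sprr2h at -5.87 (SE 0.57), -5.59 (SE 0.53) and -3.30 (SE 0.45). Without Tac111 replicate 1 or Tac146 replicate 4, Sprr2b was -8.43 or -6.97. Without Tac111 replicate 2, Sprr2d was -8.27 and Sprr2f -7.75, and without Tac111 replicate 3, Sprr2e was -8.56. EdgeR called all 10 members lower in Tac111, where it called 6.27% of all genes lower and 2.62% higher. All 10 had library ranges that did not overlap, lower in Tac111, as did 18.4% of all genes. This comparison reuses the libraries of both others.

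The Sprr2a copies and the 7 other members thus divided differently over the libraries. The sum of the other members was 3.78, 5.38 and 4.04 CPM in Tac111, 186, 242 and 340 CPM in Tac146, and 39.3, 5.43 and 20.0 CPM in B6. In B6 replicate 2 it stood 1.01-fold above the highest Tac111 library, while the Sprr2a sum of that library was 204-fold above the highest Tac111 library. As a share of the family, the Sprr2a copies took 55.5 to 59.7% in Tac111, 96.2 to 97.2% in Tac146 and 98.3 to 99.6% in B6. B6 replicates also spread more for some members than for others: the highest was 29.0 times the lowest for Sprr2e and 22.3 times for Sprr2d, but 1.65 times for Sprr2a2. In Tac146 this ratio was 1.47 to 2.28 for all members except Sprr2b, at 3.42. Over the 9 libraries, Pearson's r of each other member with the Sprr2a sum was 0.748 to 0.863 on the log2(CPM + 1) scale, values that mostly reflect the difference between strains.

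**Figure D3:**
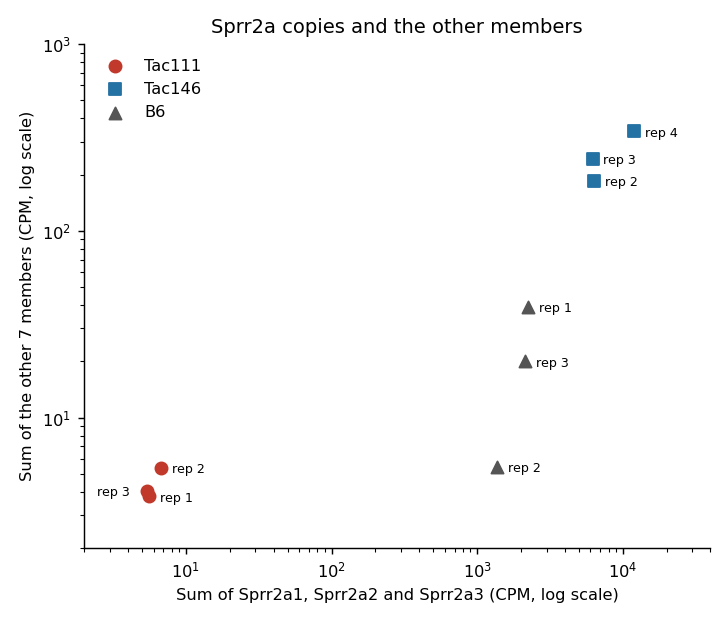
Sum of Sprr2a1, Sprr2a2 and Sprr2a3 against the sum of the other 7 members in each library (CPM, both axes logarithmic), with symbols for Tac111, Tac146 and B6. B6 replicate 2 lies near the other B6 libraries on the horizontal axis, at 1368 CPM, and beside the Tac111 libraries on the vertical axis, at 5.43 CPM.

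The difference between strains was not shared by every gene of the locus. Sprr2j-ps, the next gene after Sprr2i, had 1.78 ± 0.508 CPM in Tac111, 20.4 ± 2.97 CPM in Tac146 and 4.29 ± 1.13 CPM in B6 (SD, n = 3 each). Like 5 of the members, it was called lower in Tac111 than in B6 by edgeR (adjusted p = 0.0164), with a log2 fold change of -1.29 (SE 0.25), and higher in Tac146 than in B6 (2.24, SE 0.22, edgeR adjusted p = 0.00210). It was not called in Tac111 against B6 without either Tac111 replicate 1 or 3, or without either B6 replicate 1 or 3. Sprr2k, 23.3 kb beyond the last member, averaged 31.7 ± 7.90 CPM in Tac111, 26.6 ± 4.17 CPM in Tac146 and 25.0 ± 5.70 CPM in B6, and its ranges overlapped (edgeR adjusted p = 0.324 for Tac111 against B6 and 0.928 for Tac146 against B6). Its log2 fold change of 0.35 (SE 0.20) in Tac111 against B6 compares with -9.38 to -0.83 among the members. Sprr2c-ps, a processed pseudogene between Sprr2b and Sprr2d, had 0 counts in all 9 libraries. The other tested neighbours, Prr9, Gm35439 and Gm43735 before the cluster and Gm9774 after it, were called in no comparison by edgeR. Of these, Gm43735 had a log2 fold change of -0.48 (SE 0.18) both for Tac111 and for Tac146 against B6.

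No other small proline-rich gene on the list was called between strains. Sprr1a averaged 1808 ± 131 CPM in Tac111, 1987 ± 360 CPM in Tac146 and 1793 ± 437 CPM in B6, and Sprr3 3774 ± 597 CPM in Tac111, 3990 ± 852 CPM in Tac146 and 3844 ± 1220 CPM in B6 (SD, n = 3 each). Sprr1a, Sprr1b, Sprr3 and Sprr4, and the envelope proteins involucrin (Ivl) and loricrin (Lor), were called in none of the comparisons by edgeR. For Sprr1a the log2 fold change was 0.01 (SE 0.19) in Tac111 against B6 and 0.15 (SE 0.19) in Tac146 against B6.

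Of 37 other genes of the cornified envelope, its cross-linking enzymes and desmosomes, all tested, edgeR called 0 in Tac111 against B6, with 4 at an unadjusted p under 0.05 and 1 called by DESeq2. In Tac146 against B6 it called 0, with 5 at an unadjusted p under 0.05 and 0 called by DESeq2. In Tac111 against Tac146, where 6.27% of all genes tested were called lower, 4 of the 37 fell (DESeq2 called 6): Dsg3 and Dsp of the desmosome, the envelope protein gene Kprp and the transglutaminase gene Tgm1. Dsg3 had the largest of these differences, 292 ± 24.8 CPM in Tac111 and 534 ± 113 CPM in Tac146 (edgeR adjusted p = 0.0161), a log2 fold change of -0.87 (SE 0.17). For Tgm1, which cross-links Sprr proteins into the envelope, the log2 fold change was -0.54 (SE 0.13, edgeR adjusted p = 0.0359). Each of the 4 calls was lost without at least 2 of the single libraries. Median log2 fold changes of the list were 0.01 in Tac111 against B6, 0.17 in Tac146 against B6 and -0.14 in Tac111 against Tac146, next to -3.71, 3.01 and -7.57 for the Sprr2 members.

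**Figure D4:**
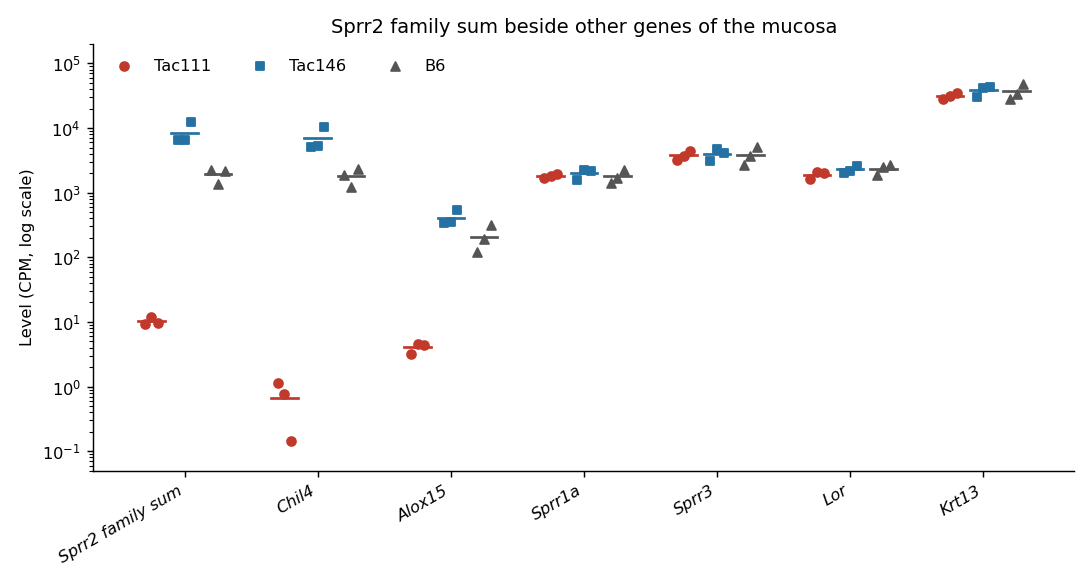
Level in each library (CPM, log scale) of the Sprr2 family sum, Chil4, Alox15, Sprr1a, Sprr3, Lor and Krt13, with Tac111, Tac146 and B6 from left to right, points for libraries and lines for means of 3. The family sum, Chil4 and Alox15 are lowest in Tac111 and have their highest mean in Tac146, whereas the libraries of the strains overlap for Sprr1a, Sprr3, Lor and Krt13.

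Because Sprr2a genes respond to interleukins 4 and 13, genes of that pathway are set beside the family. Of 43 such genes, 31 passed the filter, and edgeR called 7 lower in Tac111 than in B6 (DESeq2 8), next to 2.80% of all genes tested. The median over the tested list members was -0.28 on the log2 scale. The genes called were the shared cytokine receptor chain gene Il2rg, the chitinase-like genes Chil3 and Chil4, and the lipoxygenase gene Alox15. Retnla and the chemokine genes Ccl17 and Ccl22 were called too. Il2rg had the smallest adjusted p (3.59e-06 by edgeR), with 4, 3 and 4 counts in the Tac111 libraries and 216, 148 and 145 in the B6 libraries. The strains carried different mutations, and whether such a mutation bears on the Il2rg level was not tested. Chil4 had 0.675 ± 0.494 CPM in Tac111, 6950 ± 3062 CPM in Tac146 and 1802 ± 553 CPM in B6, which is close to the family sum in Tac146 and B6. Alox15 had 4.02 ± 0.737 CPM in Tac111, 409 ± 109 CPM in Tac146 and 208 ± 96.1 CPM in B6. In Tac146 against B6 edgeR called 0 of the list, with 7 at an unadjusted p under 0.05 and 0 called by DESeq2, and Chil4 itself had a log2 fold change of 1.95 (edgeR adjusted p = 0.105). In Tac111 against Tac146 it called 12 of the 31 lower (DESeq2 14), where 6.27% of all genes tested were called lower. This list, the envelope list above and the keratinocyte list below were chosen with earlier results of these data known. How many of their genes were called is therefore a description, and no enrichment is read from it.

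The ligands were near the limit of detection. Il13, chosen after its values were seen, had 0 counts in each Tac111 library, 5, 11 and 20 in the Tac146 libraries and 3, 3 and 1 in the B6 libraries, and did not pass the filter. Il4 had 0 to 3 counts in Tac111 and Tac146 libraries and 2 to 4 in B6 libraries. Stat6, the factor downstream of both ligands, averaged 103 ± 2.40 CPM in Tac111, 120 ± 6.94 CPM in Tac146 and 115 ± 14.6 CPM in B6 and was called in no comparison (edgeR adjusted p = 0.357 for Tac111 against B6 and 0.898 for Tac146 against B6). Il4ra, the receptor chain common to both ligands, was not called either (edgeR adjusted p = 0.907 for Tac111 against B6, 0.542 for Tac146 against B6 and 0.0692 for Tac111 against Tac146). Of the receptor and signalling genes, Il13ra1, a receptor chain for interleukin 13, was called lower in Tac111 against Tac146 (-0.44 on the log2 scale, SE 0.10, adjusted p = 0.0282 by edgeR), as were the kinase gene Jak1 and the feedback inhibitor gene Socs3, and neither comparison with B6 called these 3. Il5, another type 2 cytokine gene, passed the filter. It averaged 0.413 ± 0.133 CPM in Tac111, 0.260 ± 0.081 CPM in Tac146 and 0.255 ± 0.147 CPM in B6. EdgeR called Il5 in no comparison, nor the epithelial cytokine genes Il33 and Tslp.

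Of 26 transcription factor and regulator genes of keratinocytes, all tested, edgeR called 4 lower in Tac111 than in B6 (DESeq2 6), next to 2.80% of all genes tested. The median over the list was -0.21 on the log2 scale. The genes called were the AP-1 genes Fos and Jun, Ets1 and Nfkbiz, and for all but Fos the call was lost without at least 3 of the single libraries. Fos had the smallest adjusted p, with 11.6 ± 4.09 CPM in Tac111 and 34.3 ± 7.21 CPM in B6 (edgeR adjusted p = 0.00740), a log2 fold change of -1.57 (SE 0.25). Nfkbiz, which encodes a nuclear regulator of NF-kappaB target genes, was the only one of the list called in Tac146 against B6. It had 8.97 ± 0.600 CPM in Tac111, 24.3 ± 3.68 CPM in Tac146 and 14.3 ± 1.41 CPM in B6, the same order of strains as the Sprr2 family, with a log2 fold change of 0.77 in Tac146 against B6 (SE 0.13, edgeR adjusted p = 0.0389). That call was lost with only the 6 libraries of these strains, and without any single library other than Tac146 replicate 2 or B6 replicate 1. In Tac111 against Tac146 edgeR called 9 of the list lower (DESeq2 12), next to 6.27% of all genes tested, Nfkbiz with the smallest adjusted p (0.000183) and Klf4 next (adjusted p = 0.0105 by edgeR, with -0.47 on the log2 scale, SE 0.08).

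Of 11591 tested non-members whose highest strain mean reached 5 CPM, Chil4 had the pattern most like the family sum. Pearson's r on the log2(CPM + 1) scale over the 9 libraries was 0.997 for Chil4, 0.994 for Tcim, 0.992 for Limd1, 0.990 for Alox15 and 0.989 for Gzmc. Limk2 (0.983) and Pnrc2 (0.978) were also among the closest. The most opposed were Cirbp (-0.986), Rhbdd3 (-0.982), Dmwd (-0.979) and Nudcd3 (-0.970). These values describe 9 libraries in 3 strains, so they mainly order genes by their differences between strains. Their sizes of change differed widely: Tcim averaged 13.2 ± 0.560 CPM in Tac111, 24.6 ± 1.18 CPM in Tac146 and 21.6 ± 0.695 CPM in B6, less than 2-fold, where Chil4 and the family sum differed by over 100-fold between Tac111 and each other strain.

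Some marker lists of other cells differed between strains beside these results, and others overlapped among all strains. Of the latter, the 8 ILC2 markers summed to 637 to 725 CPM in Tac111, 561 to 766 CPM in Tac146 and 542 to 859 CPM in B6. In Tac111, Il13 and Klrg1 of this list were at 0, and Il5 of the list averaged 0.413 CPM in Tac111, 0.260 in Tac146 and 0.255 in B6. The sum was far above the level of the leukocyte gene Ptprc given below. It therefore cannot show whether the strains had similar amounts of ILC2 cells. Basal keratinocyte markers also overlapped among all strains, as did the sum of a list that pools eosinophil and mast cell genes. Epx, an eosinophil gene of that list, had 0 counts in every strain, so its sum cannot be read as a level of eosinophils. The 8 T cell markers summed to 6.32 to 8.69 CPM in Tac111, 7.13 to 9.40 CPM in Tac146 and 12.1 to 15.9 CPM in B6, so the B6 libraries lay above all others. The 4 epidermal suprabasal keratins summed to 11597 to 12123 CPM in Tac111, 7758 to 10846 CPM in Tac146 and 7905 to 12382 CPM in B6, so B6 overlapped both other strains. Ptprc, which encodes the leukocyte protein CD45, averaged 4.69 ± 0.316 CPM in Tac111, 11.5 ± 1.26 CPM in Tac146 and 11.2 ± 0.592 CPM in B6. By edgeR it fell in Tac111 relative to B6 by 1.26 on the log2 scale (SE 0.12, adjusted p = 0.000389), and differed little between Tac146 and B6 (log2 fold change 0.03, SE 0.11), where Sprr2 members differed. The 8 ILC1 and NK cell markers summed to 0.939 to 1.12 CPM in Tac111, 6.33 to 8.93 CPM in Tac146 and 6.26 to 8.42 CPM in B6, with Ncr1, Eomes, Prf1 and Gzma at 0 in Tac111. The 8 skeletal muscle markers took 2.63 to 2.85% of the counts in Tac111, 1.53 to 2.37% in Tac146 and 2.51 to 2.97% in B6, and the 4 wound keratins 0.503 to 0.621% in Tac111, 0.614 to 0.898% in Tac146 and 0.634 to 0.696% in B6. Their part in the Sprr2 differences was not tested.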

How the data were processed

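The authors deposited 1 table of expected counts per gene for each library. STAR and RSEM on GRCm38 are named in the submitters' processing notes, without versions, annotation or strand setting. The kit was stranded, per the labels' protocols. Symbols on several lines were summed, leaving 55342 names. Expected counts were rounded, filtered with filterByExpr (16523 genes) and fitted over all 9 libraries with edgeR 4.0.16 (R 4.3.3), using TMM factors, glmQLFit and glmQLFTest, with Benjamini-Hochberg adjustment over all genes tested. Each SE is the log2 fold change, unsigned, divided by the root of F. CPM uses TMM-scaled totals. The fit was first tested on simulated counts.

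The members and lists were chosen with earlier results of these data known. Beyond all members, up to 4 genes per list and comparison with the smallest adjusted p were named, the 8 genes most like (1 of them is not reported here) and 4 least like the family sum, and up to 3 tested neighbours per side. Sprr1a, Sprr1b, Sprr3, Sprr4, Ivl, Lor, Stat6, Il4, Il5, Il13, Il33, Tslp, Il4ra, Il13ra1, Jak1, Socs3, Retnla, Chil3, Ccl17, Ptprc, Krt4 and Krt13 were named outside that rule, after their values were seen. Libraries within strains varied beyond counting noise (chi-square per degree of freedom 14.6 to 86.4). Coding sequences are from GENCODE M21, promoters from RefSeq. Alternatives were RLE and upper-quartile factors, library totals, DESeq2 1.42.0, other filters, a replicate block, 6 libraries only and single libraries left out.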

Additional observations from a re-analysis of the deposited data

How the results depend on the processing

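The log2 ratios of the family sum and of the Sprr2a sum kept their sign and moved by less than the spread between replicates under RLE factors, upper-quartile factors, library totals and, chosen after seeing the data, scaling to Krt4 and Krt13. With single libraries left out, the family sum gave -7.75 to -7.42 for Tac111 against B6, 1.74 to 2.28 for Tac146 against B6 and -9.83 to -9.29 for Tac111 against Tac146, and the Sprr2a sum -8.53 to -8.21, 1.71 to 2.26 and -10.59 to -10.05 in the same order. Counts depended more on the setting. Members called in Tac111 against B6 (5) were 9 with DESeq2, 9 with no filter on low counts and 3 to 9 with single libraries left out. Members called in Tac146 against B6 (9) were 1 with only the 6 libraries of these strains and 4 to 9 with single libraries left out, and all 10 were called in Tac111 against Tac146 under every alternative run. Genes called in Tac111 against B6 (630) were 1213 with DESeq2, 1020 with no filter and 295 to 958 with single libraries left out. Those in Tac146 against B6 (50) were 136 with DESeq2, 129 with no filter, 26 with the 6 libraries and 33 to 64 with single libraries left out, and those in Tac111 against Tac146 (1469) were 2677 with DESeq2, 641 with the 6 libraries and 470 to 1829 with single libraries left out. The causes were not tested.

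No pairing of libraries by replicate number was evident: deviations of same-numbered libraries from different strains correlated at -0.09 to 0.21, and not every library correlated best with its own number. With so few libraries per strain, these values cannot exclude a pairing. With the replicate block, 8 members were called in Tac111 against B6 and 10 in Tac146 against B6, and 632 genes in Tac111 against Tac146. Nfkbiz in Tac146 against B6, and Dsg3, Dsp, Kprp, Tgm1, Klf4, Maf and Ets1 in Tac111 against Tac146, were not called with the block. In Tac146 against B6, where neither was called, the log2 fold change of Maf was 0.10, but -0.042 with the replicate block and from -0.062 (without Tac146 replicate 4) to 0.18 with single libraries left out. That of Sprr2k was 0.09, and -0.053 (without B6 replicate 1) to 0.28, also negative without Tac146 replicate 3 (-0.039). No member's log2 fold change changed sign under any alternative run. Depth limits Sprr2e, with 3 counts in Tac111, and the split among the Sprr2a copies there.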
